A study of Mus musculus with 12 samples.

Results

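Sox5, Sox6 and Sox13 are the 3 genes of the SoxD group among the 21887 protein-coding mouse genes examined, and they were chosen with peaks of these same libraries at their loci, compared between genotypes, already known. Each was described through every called peak of acetylated histone H3 lysine 27 (H3K27ac), a mark of active promoters and enhancers, in its gene body plus 20 kb on each side. Native chromatin, digested with micrococcal nuclease, was prepared from whole cortex of E15.5 mouse embryos. The conditional knockout (cKO) cortices were Emx1Ires-Cre; Prdm16flox/flox and the control cortices, called WT, were Prdm16 flox/flox without Cre, so both genotypes carried the floxed allele. Emx1-driven Cre acts in dorsal forebrain progenitors and their progeny, while interneurons from the ventral forebrain, vessels and microglia in a whole-cortex sample lie outside its lineage. Prdm16 is a zinc-finger protein that acts on chromatin in neural stem and progenitor cells. There were 3 H3K27ac libraries per genotype, and 6 input libraries were not analysed here. Whether the replicates are different embryos or litters is not stated.

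SoxD proteins bind DNA through an HMG box and pair through a coiled coil, but have no activation or repression domain of their own, so they act through partner factors. In the developing cortex, Sox5 is expressed in early-born subplate and corticofugal projection neurons and controls the order in which they are generated. Sox6 is expressed in dorsal progenitors and in interneurons that arrive from the medial ganglionic eminence, and is needed for those interneurons to settle and mature. Sox13 is best known from gamma-delta T cells, where it restrains the Wnt effector Tcf7.

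The lists held 48168 to 75563 peaks and covered 53.9 to 92.1 Mb, with WT replicate 3 the shortest and WT replicate 2 the longest. By their identifiers, the libraries form set 1, with replicates 1 and 2 of each genotype, and set 2, with replicate 3 of each. Read depth is unknown, since peak lists hold no counts, and a base without a peak is a base below the peak caller's threshold. Because lists of unequal length find unequal numbers of weak peaks, the loci were described in the full lists and in equal-length lists of the 48168 peaks with the highest −log10 p per library. All 11 cortical identity genes examined, among them Emx1 and Neurod6, were covered by peaks in all 6 libraries. At Prdm16 itself the scaled covered length, defined with the covered lengths of the SoxD genes, was 95253 ± 2395 bp in cKO and 79817 ± 2399 bp in WT (SD, n = 3 each), a log2 difference of 0.25 ± 0.09 (SE) with a limma adjusted p of 0.376. That length includes bases outside the floxed exon and is no check of recombination.

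Sox5 occupies chromosome 6 from 143828425 to 144782287 (mm10), Sox6 chromosome 7 from 115470872 to 116040776, and Sox13 chromosome 1 from 133382300 to 133424459. All 3 are on the minus strand, so each gene starts at its highest coordinate, and distances below run downstream from that end. Sox5 and Sox6 are long genes of 953863 and 569905 bp without another protein-coding gene in their windows. Sox13 spans 42160 bp, and its window also holds Etnk2, an ethanolamine kinase gene that ends 1981 bp away. Just outside the windows, the nearest region lay 10680 bp beyond the Sox5 window, 28982 bp beyond the Sox6 window and 3744 bp beyond the Sox13 window.

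Acetylated sites were compared between the SoxD genes first. This comparison does not use the genotype contrast, but it draws on the same peaks that were known when the genes were chosen. Sox13 was the most densely covered, followed by Sox5 and then Sox6. Peaks covered 12.1 ± 1.48% of the Sox13 window in cKO and 13.5 ± 2.62% in WT (SD, n = 3 each). For Sox5 the values were 10.1 ± 0.851% in cKO and 11.2 ± 3.33% in WT. For Sox6 they were 7.60 ± 0.722% in cKO and 7.77 ± 1.82% in WT. The order was the same in each of the 6 libraries. Over all 6 libraries, Sox13 exceeded Sox5 by 2.15 points, Sox13 exceeded Sox6 by 5.12 points and Sox5 exceeded Sox6 by 2.97 points. Each difference had p = 0.03125 in a two-sided exact sign-flip permutation test, the smallest that 6 libraries allow. The value was the same after Benjamini-Hochberg adjustment over the 3 gene pairs. These p-values say only that the order of 3 fixed loci held in every library. The windows of 21887 genes had a median of 3.58% covered, and 76.6% of genes lay below Sox6, 86.6% below Sox5 and 90.8% below Sox13. The 20 kb flanks make up more of the Sox13 window than of the others. Over the gene bodies alone, Sox13 exceeded Sox5 by 7.85 points and Sox6 by 10.6 points, and Sox5 exceeded Sox6 by 2.77 points.

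**Figure D1:**
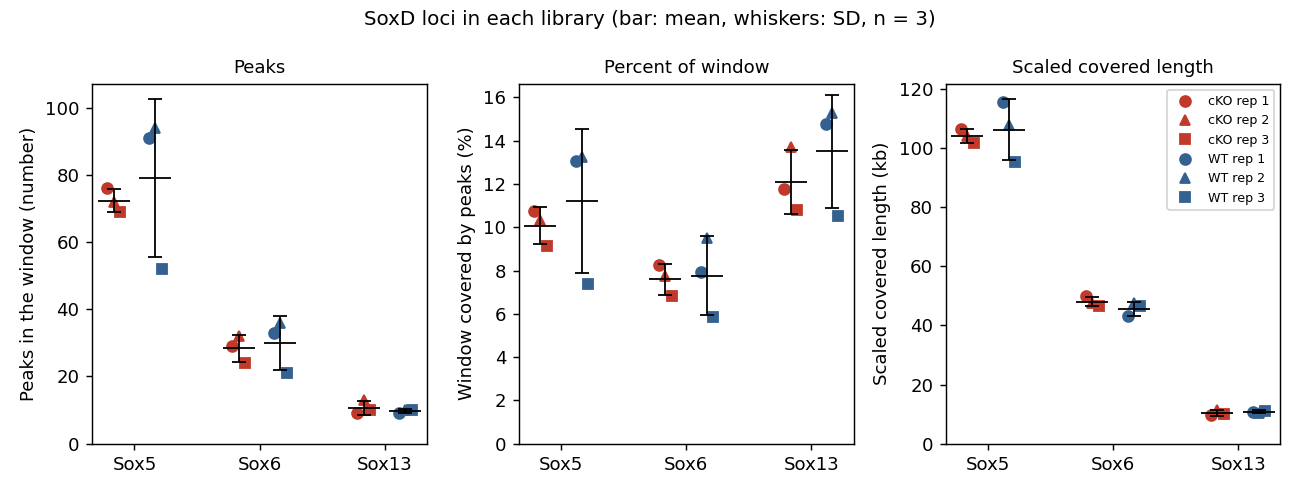
Peaks per window, percent of the window covered and scaled covered length at Sox5, Sox6 and Sox13. Red points are the cKO libraries and blue points the WT libraries, with the mean and SD (n = 3) in black. The WT libraries spread more widely than the cKO libraries at Sox5, and the genotypes overlap in every panel.

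The total covered length at the SoxD genes was then compared between genotypes. Since this contrast was used to choose the genes, the values are a description without a test. At Sox5, peaks covered 106974, 102817 and 90703 bp in cKO replicates 1 to 3, against 129791, 131438 and 73330 bp in WT replicates 1 to 3. WT replicate 3 was the lowest of the 6 and the other WT libraries the highest, so the cKO libraries fell between them. After every library was scaled to the same sum over all gene windows, Sox5 had 103989 ± 2269 bp in cKO and 106195 ± 10208 bp in WT (SD, n = 3 each). The log2 difference, taken after adding 500 bp, was −0.03 ± 0.10 (SE), with −0.09 in set 1 and 0.09 in set 2.

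At Sox6, peaks covered 50229, 47198 and 41548 bp in cKO, against 48328, 57974 and 35784 bp in WT. The highest and the lowest library were both WT. Scaled lengths were 48074 ± 1679 bp in cKO and 45683 ± 2350 bp in WT (SD, n = 3 each), a log2 difference of 0.07 ± 0.10 (SE), with 0.11 in set 1 and 0.0029 in set 2. Without scaling the Sox6 difference was −0.0087. At Sox13, peaks covered 9682, 11254 and 8870 bp in cKO, against 12128, 12535 and 8625 bp in WT. Here too WT replicate 3 was the lowest. Scaled lengths were 10315 ± 933 bp in cKO and 10760 ± 471 bp in WT (SD, n = 3 each), a log2 difference of −0.06 ± 0.10 (SE), with −0.01 in set 1 and −0.16 in set 2.

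Over the whole genome, 42 of 15354 genes tested passed an adjusted p of 0.05 in limma (0.274%), 19 with longer coverage in cKO (0.124%) and 23 with shorter (0.15%). The median log2 difference of all genes tested was 0.03, with 5% of genes below −0.29 and 5% above 0.26. All 3 SoxD values lay near that median: 65.8% of genes were farther from it than Sox5, 70.9% farther than Sox6 and 48.9% farther than Sox13. In bulk cortex, a change in the number of cells of one type and a change in acetylation per cell cannot be told apart.

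Peaks of the 6 lists were next merged into regions wherever they overlapped or touched. The full lists gave 116 regions at Sox5, 43 at Sox6 and 12 at Sox13, 171 in all. Of these, 47 at Sox5, 16 at Sox6 and 8 at Sox13 had a peak in all 6 libraries. At Sox5, 34 regions came from a single library, 13 of them from WT replicate 1 and 14 from WT replicate 2. WT replicate 3 had no peak in 68 of the 116 Sox5 regions, and 10 of these were found in all the other libraries. At Sox6, 9 regions came from a single library and 4 lacked only WT replicate 3. The shared regions had a median width of 2041 bp at Sox5 and 2019 bp at Sox6, against 576 and 641 bp for regions of fewer libraries. These are widths of merged peaks, and merging peaks of more libraries widens a region by construction, so nothing is read from this contrast. At Sox5 the shared regions held 88.0 ± 3.13% of the covered bases in cKO and 85.8 ± 11.6% in WT (SD, n = 3 each).

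One region at Sox6 had a peak in all 3 cKO libraries and in no WT library of the full lists. It spanned 115663256 to 115664068, inside the gene and 377 kb from its start. Exons and introns were not assigned. Peaks covered 752, 755 and 605 bp in cKO replicates 1 to 3 and 0 bp in each WT library. The authors' fold enrichments of the peaks were 5.64, 4.42 and 5.45 in cKO, with −log10 q values of 7.31, 4.78 and 6.28. Such values depend on each library's list and are the authors'. Here and below they are listed by library to describe peaks, and differences in them between libraries are not interpreted. Within their own lists, the peaks stood 2.46 to 4.83 units of −log10 p above the lowest peak kept in the equal-length lists, and the region was cKO-only in those lists as well. Genome-wide, 298 of 85918 regions (0.347%) were cKO-only in the full lists, and 1 of the 171 SoxD regions was; since the genes were chosen on this contrast, nothing is read from that share.

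The regions on both sides of this site were wider in every cKO library. Its nearest neighbour, 2471 bp above it, spanned 115666540 to 115670142 and had peaks in all 6 libraries. That neighbour covered 1414, 2388 and 1818 bp in cKO, against 558, 1038 and 434 bp in WT. Every cKO width was above every WT width. The −log10 q values were 13.6, 8.08 and 8.56 in cKO and 7.04, 5.77 and 5.37 in WT. The neighbour below, 15521 bp away at 115644984 to 115647734, covered 2751, 2221 and 2286 bp in cKO, against 1889, 2137 and 1740 bp in WT. Its widths did not overlap either, although cKO replicate 2 exceeded WT replicate 2 by little. A further region at 115615224 to 115616614 covered 1391, 1051 and 1015 bp in cKO, against 943, 925 and 805 bp in WT. These 3 were the only Sox6 regions shared by all 6 libraries that were wider in every cKO library. They were wider in every cKO library of the equal-length lists too. Shortening a list drops whole peaks and leaves the width of kept ones unchanged, so this is no separate support.

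One shared Sox6 region was narrower in cKO. It lay at 115833156 to 115834553 and covered 964, 474 and 1065 bp in cKO, against 1245, 1374 and 1220 bp in WT. Its widths did not overlap, and its −log10 q values were 3.26, 2.47 and 2.13 in cKO and 3.57, 6.13 and 2.98 in WT. In the equal-length lists the peak of cKO replicate 3 was dropped, so the region was no longer shared by all 6 libraries. Genome-wide, among 39889 regions shared by all 6 libraries, 1153 (2.89%) were wider in every cKO library and 2368 (5.94%) narrower in every cKO library. At Sox6 the counts were 3 and 1 of 16. The genes were chosen on this contrast, so nothing is read from these counts beside the genome-wide shares.

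**Figure D2:**
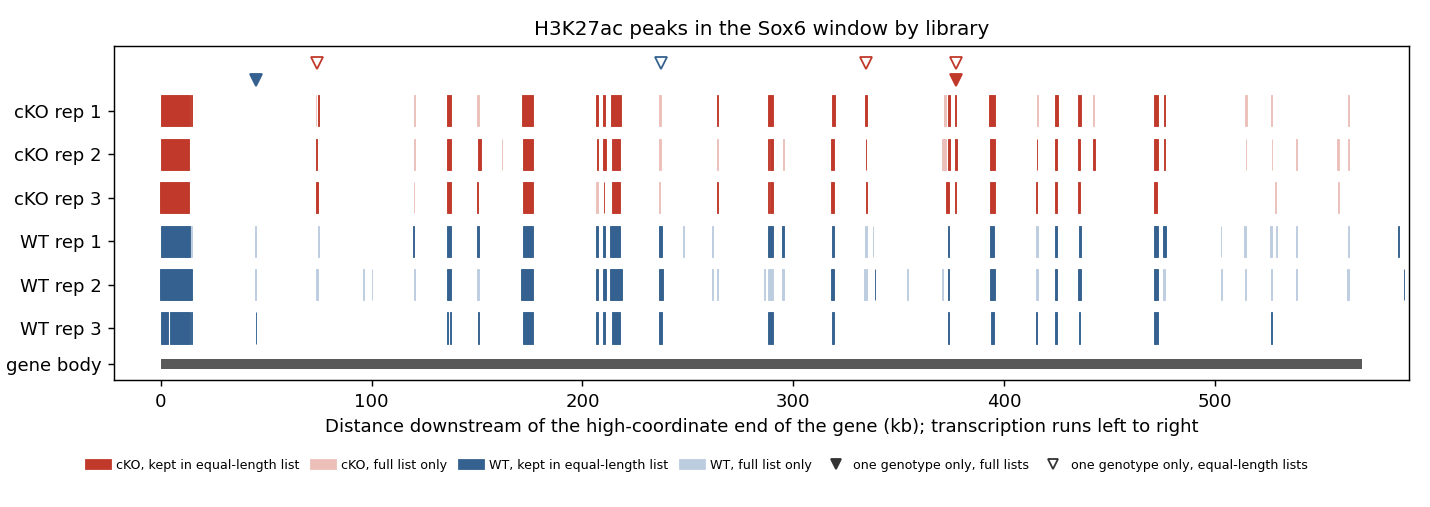
H3K27ac peaks in the Sox6 window, by distance in kb from the gene's start, with the cKO libraries above the WT libraries. Dark bars are peaks kept in the equal-length lists and pale bars peaks of the full lists only. Triangles mark regions with peaks in one genotype only, filled for full lists and open for equal-length lists, red for cKO-only and blue for WT-only. The region 377 kb from the start carries both red triangles.

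The converse, a peak in all 3 WT libraries and no cKO library, was also found once, at Sox6 from 115995674 to 115996000. Peaks there covered 0 bp in each cKO library, against 217, 161 and 161 bp in WT replicates 1 to 3. The WT −log10 q values of 2.14, 2.42 and 2.14 were close to the lowest in the lists, which were 1.31 to 1.39. In the equal-length lists the peak was left in WT replicate 3 only. Genome-wide, 779 of 85918 regions (0.907%) were WT-only in the full lists. This small site bounds the longest stretch of Sox6 without any region, 29881 bp between it and the acetylated block at the gene start.

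That block was the widest region of Sox6, from 116025882 to 116041234, and ranked 81 by width among 85918 regions, whose median width was 940 bp. Peaks covered 14264, 13579 and 13508 bp of it in cKO, against 14258, 15353 and 13187 bp in WT. The genotypes overlapped in width. The −log10 q was 31.7, 31.6 and 26.1 in cKO and 30.5, 33.0 and 30.1 in WT. It held 29.9 ± 2.28% of all covered bases at Sox6 in cKO and 30.9 ± 5.33% in WT (SD, n = 3 each).

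Sox6 has 6 transcription starts in the RefSeq promoter table (GRCm38.p6, the assembly of mm10), and their acetylation differed. A pair of them lay inside the block at the gene start. Another, 216 kb downstream, lay in the region from 115822080 to 115827603, which had peaks in all 6 libraries with −log10 q values of 12.5, 11.0 and 11.1 in cKO and 12.2, 13.3 and 8.74 in WT. The other 3 had no peak of any list in the 250 bases before the start, and for one of them these bases lay 337 bp from the WT-only site. The same 250 bases were searched on both strands for AACAAT, a sequence bound by the HMG box of Sox proteins (ATTGTT on the other strand). It was present before 1 of the 8 SoxD starts and before 9.42% of 32851 promoters in the table. The sequences of 3 contrasting Sox6 starts, and of the Sox5 start in the table, which lies inside the gene and is not the gene start described below, are given 5′ to 3′ on the minus strand with AACAAT and ATTGTT in capitals; they show an internal start with peaks, the block at the gene start, and an internal start of Sox6 and of Sox5 without peaks.
Sox6 internal start, peaks in all 6 libraries, chr7:115824711-115824960: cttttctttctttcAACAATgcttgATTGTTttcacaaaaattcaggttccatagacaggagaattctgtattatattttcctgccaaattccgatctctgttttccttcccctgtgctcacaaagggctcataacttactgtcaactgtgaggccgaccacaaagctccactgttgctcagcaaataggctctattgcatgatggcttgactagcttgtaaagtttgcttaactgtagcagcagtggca
Sox6 start in the block at the gene start, chr7:116038745-116038994: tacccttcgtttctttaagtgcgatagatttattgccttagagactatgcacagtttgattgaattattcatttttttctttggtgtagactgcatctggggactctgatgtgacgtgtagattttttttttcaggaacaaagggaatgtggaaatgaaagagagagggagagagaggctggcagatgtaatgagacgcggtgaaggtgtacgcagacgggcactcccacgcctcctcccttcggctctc
Sox6 internal start without a peak, chr7:115995087-115995336: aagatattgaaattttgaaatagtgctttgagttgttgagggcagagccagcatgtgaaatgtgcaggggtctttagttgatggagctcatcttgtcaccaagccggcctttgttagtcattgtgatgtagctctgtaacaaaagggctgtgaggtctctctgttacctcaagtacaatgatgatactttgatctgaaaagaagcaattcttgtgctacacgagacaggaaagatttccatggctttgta
Sox5 internal start without a peak, chr6:143947107-143947356: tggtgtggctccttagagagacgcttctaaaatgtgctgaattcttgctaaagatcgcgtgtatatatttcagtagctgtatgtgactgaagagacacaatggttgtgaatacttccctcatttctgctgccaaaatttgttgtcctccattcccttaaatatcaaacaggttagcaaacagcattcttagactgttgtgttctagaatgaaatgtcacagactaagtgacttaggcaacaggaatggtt

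The first of these sequences holds AACAAT and, a few bases on, its reverse complement. The other 3 hold neither in the 250 bases searched. A match of letters does not show binding.

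Equal-length lists brought out more one-genotype regions. They gave 75 regions at Sox5, 29 at Sox6 and 10 at Sox13, with 3 cKO-only regions at Sox5, 3 at Sox6 and none at Sox13. Genome-wide, 630 of 63851 regions (0.987%) were cKO-only and 580 (0.908%) WT-only in these lists. Of the 6 SoxD regions, the 377 kb site of Sox6 was the only one without a WT peak in the full lists. The other 5 had peaks in WT replicates 1 and 2 that were dropped when those lists were shortened, and none in WT replicate 3, whose list was not shortened.

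At Sox5 the 3 sites lay 238, 518 and 675 kb from the gene start. The farthest, 144106176 to 144107680, covered 972, 1498 and 780 bp in cKO of the equal-length lists. Its −log10 p values were 7.14, 5.68 and 6.50 in cKO, against 3.50 and 3.92 in WT replicates 1 and 2 of the full lists. By the definition of a cKO-only site, each cKO peak was above the limit of its own list and both WT peaks were below theirs. The same holds by definition at the other 2 sites. At 144264388 to 144264986 the −log10 p values were 5.50, 7.93 and 5.71 in cKO, against 4.36 and 4.63 in the same WT libraries. At 144543594 to 144544225 they were 5.63, 5.46 and 5.20 in cKO, against 3.81 and 4.67. The lowest −log10 p kept in an equal-length list was 4.41, 4.19 and 4.13 in cKO replicates 1 to 3 and 4.58, 5.06 and 3.12 in WT replicates 1 to 3, so WT replicate 2 faced the highest limit.

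The other 2 cKO-only sites of Sox6 stood closer to these limits. At 115705649 to 115706948 the −log10 p values were 4.78, 5.17 and 4.89 in cKO, against 3.99 and 3.96 in WT replicates 1 and 2. At 115965915 to 115967132 they were 4.73, 4.23 and 5.06 in cKO, against 3.88 and 4.23 in the same WT libraries. The cKO replicate 2 peak at the second of these was only just above the limit of its list. One Sox6 region became WT-only, at 115802418 to 115804426, 558 bp from the 250 bases before an internal start without a peak. It had −log10 p values of 4.22, 3.67 and 3.53 in cKO and 6.44, 5.22 and 5.17 in WT in the full lists, where all 6 libraries had a peak. At the limit, the weakest Sox6 peak kept had a −log10 p of 4.73, 4.19 and 4.16 in cKO and 4.65, 5.09 and 3.63 in WT. The strongest one dropped had 4.36, 4.04 and 4.01 in cKO and 4.51 and 4.92 in WT replicates 1 and 2.

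**Figure D3:**
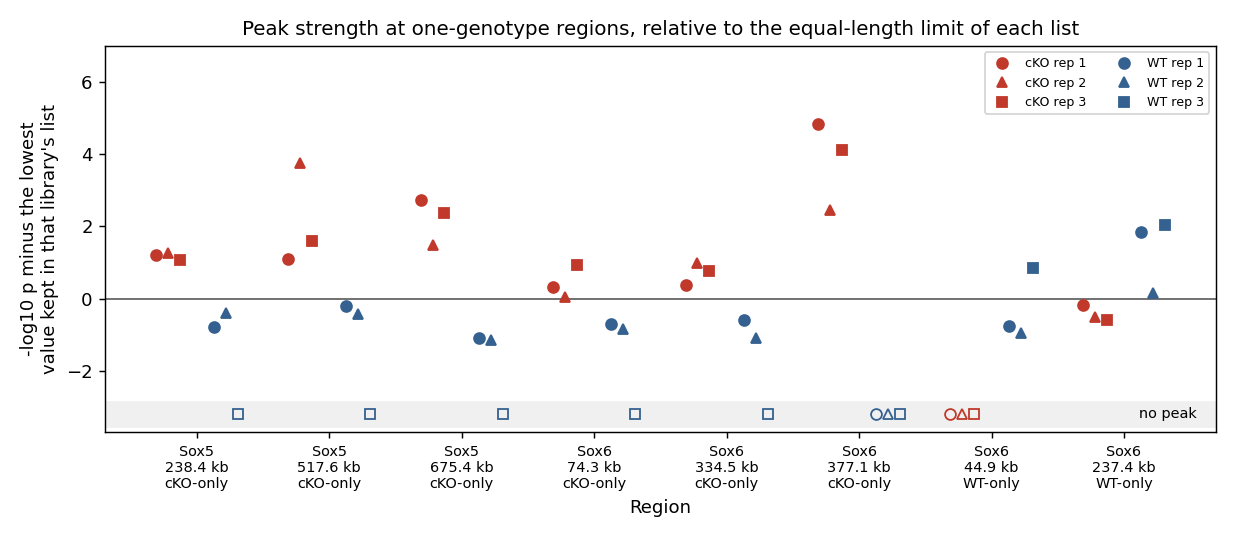
Strength of the peaks at the 8 SoxD regions found in one genotype only in either kind of list, as −log10 p minus the lowest −log10 p kept in that library's equal-length list. Red is cKO and blue WT, points above 0 are kept in the equal-length list, and open points in the grey band mark libraries without a peak. The Sox6 site 377 kb from the start has 3 cKO points between 2.46 and 4.83 and no WT peak.

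Sox5 carried the widest of the SoxD regions. From 144195146 to 144212693, 578 kb inside the gene, it was 17548 bp wide and ranked 55 among 85918 regions. It overlaps the long noncoding RNA gene Gm38531. Peaks covered 17417, 17237 and 16993 bp in cKO, against 17076, 16961 and 16939 bp in WT. The widths overlapped. By its weakest library it was also the strongest Sox5 region, with −log10 q values of 54.8, 53.1 and 41.7 in cKO and 41.3, 45.2 and 30.5 in WT. The region at the Sox5 gene start, 144778771 to 144783605, covered 4339, 4052 and 4191 bp in cKO, against 4835, 4477 and 3938 bp in WT, again with overlap. So the widest acetylated site of Sox5 was not at the high-coordinate end of the gene, whereas those of Sox6 and Sox13 were. Whether a further Sox5 transcription start lies inside that site was not tested. The promoter table cannot tell, since for Sox5 it does not list even the gene start. The longest stretch of Sox5 without a region was 40332 bp, from 143998955 to 144039286.

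**Figure D4:**
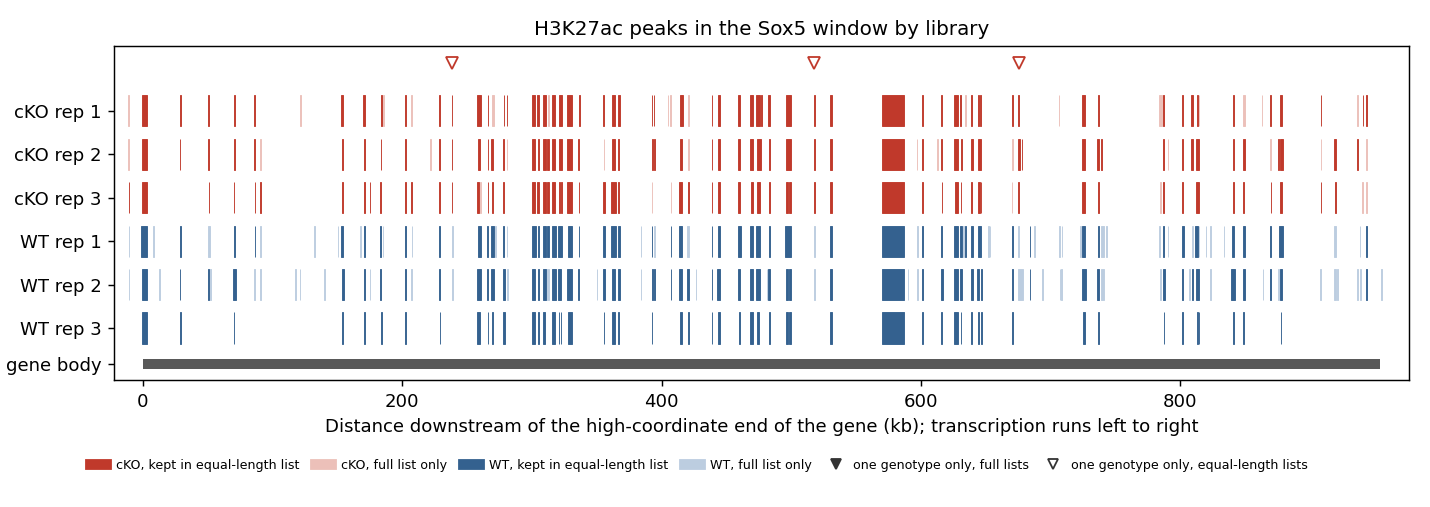
H3K27ac peaks in the Sox5 window, by distance in kb from the gene's start, with the cKO libraries above the WT libraries. Dark bars are peaks kept in the equal-length lists, pale bars peaks of the full lists only, and open red triangles the 3 regions that were cKO-only in the equal-length lists. The widest block lies 578 kb from the start in all 6 libraries.

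Shared Sox5 regions with widths that did not overlap were all narrower in cKO, with none wider. They were 3 of 47 (6.38%), beside 5.94% of all shared regions. Nothing is read from that share either, since the contrast was used to choose the genes. The largest difference was at 144503129 to 144504890, 278 kb from the start. Peaks there covered 431, 301 and 759 bp in cKO, against 1315, 1457 and 1058 bp in WT. The −log10 q values were 5.88, 4.50 and 3.02 in cKO and 7.72, 8.58 and 7.03 in WT. No cKO library reached the narrowest WT width of this region. At 144579318 to 144580047 the widths were 529, 535 and 504 bp in cKO, against 729, 618 and 557 bp in WT. At 144598306 to 144599253 they were 748, 447 and 716 bp in cKO, against 834, 871 and 772 bp in WT. The genotypes came closer together at both of these. All 3 regions were narrower in every cKO library of the equal-length lists as well. Kept peaks do not change in width there, so this too is no separate support.

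At Sox13, 2 of 8 shared regions were narrower in every cKO library, beside 5.94% of all shared regions, and none was wider, beside 2.89%. One, at 133393233 to 133395728, covered 1405, 1312 and 844 bp in cKO, against 1869, 2279 and 1483 bp in WT. The other, at 133397327 to 133398392, covered 956, 891 and 857 bp in cKO, against 982, 986 and 981 bp in WT. The second differed by little, and was the Sox13 region whose weakest library was strongest, with −log10 q values of 12.4, 10.04 and 11.4 in cKO and 11.8, 16.2 and 14.8 in WT. The region at the Sox13 start, 133422101 to 133424669, was the widest of the gene and covered 2272, 2224 and 2190 bp in cKO, against 2350, 2430 and 1815 bp in WT, with overlap. In the equal-length lists, 983 of 34569 shared regions (2.84%) were wider in every cKO library and 1908 (5.52%) narrower. The counts at the SoxD genes in those lists were 3 wider at Sox6, 3 narrower at Sox5 and 2 narrower at Sox13. Nothing is read from the Sox13 shares or these counts, since the genes were chosen on this contrast.

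**Figure D5:**
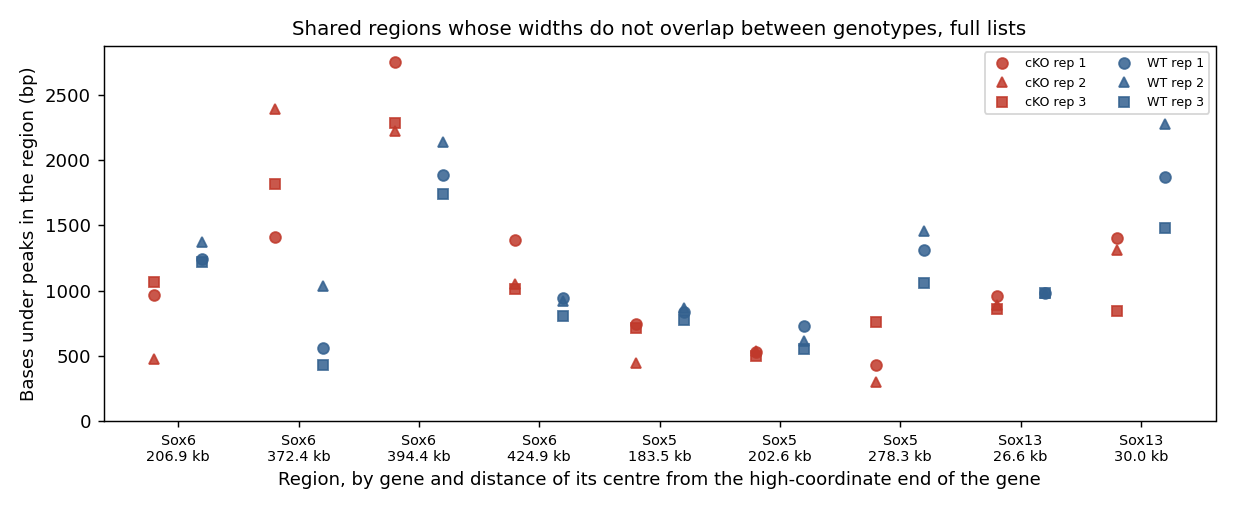
Bases under peaks at the 9 SoxD regions that all 6 libraries share and whose widths do not overlap between genotypes in the full lists. Red points are the cKO libraries and blue points the WT libraries, and regions are named by gene and distance from its start. The 3 regions wider in cKO are all at Sox6, which also has 1 region narrower in cKO. Those at Sox5 and Sox13 are narrower in cKO.

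Genes tied to SoxD function were examined in the same fit, and none of the 70 tested of 85 on 6 lists passed an adjusted p of 0.05; 10 had an unadjusted p below 0.05, or 14.3% of those tested, beside 1558 (10.1%) of all genes tested. Among 10 tested of 11 partners and targets of SoxD proteins, the median log2 difference in covered length was −0.01, beside 0.03 over all genes. The smallest p was at Tcf7, the Wnt effector that Sox13 restrains in T cells. Its scaled covered length was 2889 ± 240 bp in cKO and 4142 ± 353 bp in WT (SD, n = 3 each), a log2 difference of −0.45 ± 0.09 (SE) with a limma adjusted p of 0.101. The genotypes did not overlap at Tcf7, and it did not pass the threshold. Tcf7 was picked for its small p, so the missing overlap is no separate support. The share of all genes without overlap was not computed. Ctbp1, a corepressor, had a log2 difference of −0.38 (limma adjusted p = 0.366), and Pdgfra, a growth factor receptor of oligodendrocyte precursors, had −0.29 (limma adjusted p = 0.445).

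Of 17 other Sox genes, 13 were tested, 10 with positive and 3 with negative log2 differences around a median of 0.10. Over all genes tested the median was 0.03, and 65.6% of them lay above the −0.03 of Sox5. The share with a positive difference was not computed. Sox10, a neural crest and oligodendrocyte factor, had the smallest p of the Sox genes, with a log2 difference of 0.36 (limma adjusted p = 0.372). Sox18 followed with 0.12 and Sox12 with 0.11. All 14 genes of corticofugal and subplate neurons, where Sox5 acts, were tested, 8 with positive and 6 with negative log2 differences around a median of 0.004. Both genes named here, picked for the smallest p, were negative. Foxp2, a transcription factor of deep-layer neurons, averaged a scaled covered length of 16414 ± 785 bp in cKO and 22627 ± 905 bp in WT (SD, n = 3 each), a log2 difference of −0.45 ± 0.10 (SE) with a limma adjusted p of 0.108. Its genotypes did not overlap, which is no separate support for a gene picked by its p. Cplx3, a subplate synaptic gene, had −0.33 (limma adjusted p = 0.393).

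Of 16 genes of ventrally derived interneurons, where Sox6 acts, 15 were tested. Log2 differences were positive in 13 and negative in 2, around a median of 0.12, beside 0.03 over all genes tested. Windows of neighbouring genes can share peaks, so this count and the summed length below are not over independent genes. Maf, which guides the maturation of these interneurons, had a log2 difference of 0.47 (limma adjusted p = 0.291). Npy, an interneuron neuropeptide, had −0.45 (limma adjusted p = 0.309). The summed scaled covered length of the interneuron list was 219 to 237 kb in cKO and 186 to 241 kb in WT, so the cKO range lay inside that of WT. The cortical identity list had a median of 0.01, with 0.31 at Hes5, a Notch target of progenitors (limma adjusted p = 0.285), −0.18 at Neurod1 and −0.13 at Eomes. Markers of vessels, microglia, meninges, blood and oligodendrocyte precursors were sparsely covered: 7 of 16 were tested, Hbb-bt and Olig1 had no covered base in any library, and the summed scaled length was 28.7 to 30.4 kb in cKO and 29.4 to 38.0 kb in WT. In the tested 7 the log2 difference was positive in 3 and negative in 4, with a median of −0.008. Those with the smallest p were negative: Pdgfrb, a pericyte receptor, had −0.33 (limma adjusted p = 0.321), Csf1r, a microglial receptor, −0.31 (limma adjusted p = 0.521) and Col1a1, a collagen gene, −0.15 (limma adjusted p = 0.755). The part of these cell types in the SoxD values was not tested.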

How the data were processed

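The SoxD genes and the gene lists were chosen with earlier results of these data known. The deposited files are 1 broad peak list per H3K27ac library. The submitters' processing notes name MACS2 2.1.1, Bowtie2 2.2.8, cutadapt and FastQC, and the mm10 build. How each was run, and whether the inputs served as controls, is not stated in the sources used. Each deposited list gives, per peak, a fold enrichment ratio and −log10 p and −log10 q values from the authors' peak caller, used here only to describe, rank or filter peaks within a list. Depth is unknown.

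Python 3.11.15 (numpy 2.4.6, pandas 2.3.3, scipy 1.17.1, matplotlib 3.10.9), R 4.3.3 and limma 3.58.1 were used. Genes came from RefSeq tables of GRCm38.p6. Regions were peaks of the 6 lists merged where they overlapped or touched. Covered length counts the bases that peaks span from 20 kb below a gene to 20 kb above it, scaled to equal sums over all gene windows, tested in limma (lmFit and eBayes) on log2 after adding 500 bp, with library set as a covariate, for genes with a mean of at least 1000 bp and Benjamini-Hochberg adjustment; every adjusted p of a gene is from limma. P-values measure the spread between these libraries, which may be technical. All regions of the 3 genes were counted. Those named are one-genotype regions, regions with widths that do not overlap (added after their values were seen), and each gene's widest, strongest and start regions. From each list the 3 genes with the smallest unadjusted p are named, except some that are not reported here, as are the 3 genes with the covered-length pattern nearest to each SoxD gene. The scripts were tested on simulated data.

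Other settings tried were equal-length lists; a minimum −log10 q of 5; leaving out each library; the fit without library set or with a replicate block; quantile normalization or no scaling; 100 or 2000 bp as pseudocount; all genes regardless of length covered; the gene body alone or with 100 kb flanks; regions joined over gaps of 1 kb; and presence only where 50% of a region is covered. Scaling to the covered bases of the whole list was chosen after seeing the data.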

Additional observations from a re-analysis of the deposited data

How the results depend on the processing

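The log2 differences of the SoxD genes stayed within 1 SD of their values under every alternative except Sox6 without scaling, which was −0.0087. The library set term, a replicate block and the length filter cannot change these values, so those settings are no check. The log2 differences ranged from −0.11 to 0.02 at Sox5, −0.01 to 0.13 at Sox6 and −0.14 to 0.03 at Sox13. Each took both signs. Leaving out one library at a time gave −0.09 to 0.02 at Sox5, 0.02 to 0.11 at Sox6 and −0.14 to −0.01 at Sox13. The 42 genes called became 21 with −log10 q of at least 5, 16 without the library set term and 16 with quantile normalization. Pseudocounts of 100 and 2000 bp gave 12 and 107 calls. There was 1 call without the length filter, 1 without scaling and 106 with whole-list scaling. With a library left out the calls numbered 2 to 73, the 2 without cKO replicate 3 or WT replicate 3. Leaving out either replicate 3 library leaves the other as all of set 2, which the library set term absorbs. Both settings are therefore in effect 1 fit to set 1, for the log2 differences as well. Same-numbered libraries deviated with correlations of 0.13, 0.06 and 0.26, and differently numbered ones with −0.23 to 0.17. The replicate 3 pair was the highest of all. No pairing is stated, and the main fit did not pair samples by number. The replicate block gave 67 calls. One gene of the fixed lists was called, against 0, in equal-length lists, with 2000 bp added and with 100 kb flanks. The 1 cKO-only SoxD region became 0 with −log10 q of at least 5, 6 in equal-length lists and 2 with 100 kb flanks, and 1 to 3 with a library left out. The 1 WT-only region became 2 with −log10 q of at least 5 (both at Sox5), and 0 to 8 with a library left out, the 8 without WT replicate 3 and the 0 without WT replicate 1. With at least 50% of a region covered the WT-only total was again 1, but at Sox5 in place of the Sox6 site. Percent covered kept its order in the alternatives run for it (−log10 q of at least 5, equal-length lists, gene body alone and each library left out; 100 kb flanks were not run): with a library left out, Sox13 exceeded Sox5 by 1.91 to 2.38 points, Sox13 exceeded Sox6 by 4.77 to 5.43 and Sox5 exceeded Sox6 by 2.54 to 3.26, each with exact p = 0.0625, the smallest that 5 libraries allow. What depth limits is unknown, since the lists hold no counts.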

Other observations

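The genes whose scaled covered lengths followed each SoxD gene most closely over the 6 libraries were ranked by the root mean square difference of centred log2 values. For Sox5 they were Gcnt4, a glycosyltransferase gene, at 0.0081, Vrk1, a kinase gene, at 0.022, and Sh3bp1 at 0.022, against a median of 0.18 over genes. Vrk1 had 17558, 16642 and 16082 bp in cKO and 18283, 17552 and 15359 bp in WT, with WT replicate 3 the lowest, as at Sox5. For Sox6 they were Nr2e1, an orphan nuclear receptor of neural stem cells, at 0.0165, Selenov at 0.0185 and Supt5 at 0.020, against a median of 0.148. Nr2e1 had 16509, 15733 and 15616 bp in cKO and 14589, 15575 and 15490 bp in WT, with WT replicate 1 the lowest, as for the scaled length at Sox6. For Sox13 they were Rpl32, a ribosomal protein gene, at 0.018, Zzef1 at 0.021 and Fcsk at 0.022, against a median of 0.155. The values are a description over 6 libraries and carry no test.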
